A study of Mus musculus with 6 samples.

Results

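The proteasome genes are the protein-coding genes of the mouse whose symbols begin with Psma to Psmg followed by a number, 48 of the 49584 genes in the deposited count table and of its 21734 protein-coding genes. They were chosen by symbol alone (GENCODE vM21), which leaves out Psmc3ip, a recombination factor that only shares the prefix. RNA came from leptotene and zygotene spermatocytes, germ cells at the start of meiotic prophase, sorted by flow cytometry from testes of mice at postnatal day 12 and copied into Smart-seq2 libraries, which amplify full-length cDNA by PCR. There were 3 libraries labelled Srp68 SKO (Srp68 knockout, per the series title) and 3 labelled wild type (WT). The labels do not say which cells lose Srp68, by what Cre or allele, whether animals were pooled, or whether replicates are separate animals, so every p-value measures only the spread between these libraries, which may be technical.

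The proteasome is the large protease that degrades proteins tagged with ubiquitin in the cytosol and nucleus, among them proteins that the endoplasmic reticulum exports for destruction. Its barrel-shaped core stacks rings of alpha subunits, which form the gate, around rings of beta subunits, some of which cut peptides. A regulatory particle caps the core: its base holds ATPases that unfold the substrate, and its lid removes ubiquitin. Other activators can replace that cap, and germ cells have an alpha subunit of their own, Psma8, in what is called the spermatoproteasome.

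Srp68, the targeted gene, codes for a subunit of the signal recognition particle, and its transcript was lower in the libraries labelled SKO. It had 12.1, 6.52 and 6.93 CPM (counts scaled to a common library size, by TMM here and below) in SKO replicates 1 to 3, against 21.7, 29.3 and 22.6 CPM in WT replicates 1 to 3 (log2 fold change −1.52, SE 0.28; edgeR quasi-likelihood test, Benjamini-Hochberg adjusted p = 0.00107). Library totals ran from 11853738 to 12728853 counts in SKO and from 14254224 to 15381473 in WT, and 3 counts, the limit that a count of 0 allows, came to 0.174 to 0.289 CPM. Of 8 markers of leptotene and zygotene, 6 were higher and 1, Spo11, was lower. The largest change was that of Stra8, at 502, 430 and 526 CPM in SKO, against 86.4, 98.6 and 115 CPM in WT (log2 fold change 2.28). The 8 summed to 22274 to 29643 CPM in SKO libraries against 13525 to 16848 CPM in WT libraries, mostly from Sycp3, Sycp1 and Hormad1. Of the exon length of Sycp3, 52.2% overlaps Chpt1 on the other strand. Markers of spermatogonia summed to 237 to 313 CPM in SKO and 353 to 403 CPM in WT. Of these 9 markers 8 were tested, 0 were higher and 1, Uchl1, was lower. Uchl1 had 149, 98.7 and 107 CPM in SKO, against 207.5, 224 and 212 CPM in WT, most of the gap between the sums. Sertoli markers summed to 21.4 to 104 CPM in SKO and 40.0 to 52.3 CPM in WT, and myoid markers to 4.61 to 13.3 CPM in SKO and 1.04 to 2.32 CPM in WT. The 6 Leydig markers, of which Cyp11a1 and Cyp17a1 had no count, summed to 4.94 to 9.87 CPM in SKO and 0.580 to 6.60 CPM in WT. The part of stage or of other cells in the proteasome results was not tested. Two-sided calls below use an adjusted p under 0.05 over all 13474 genes tested.

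Proteasome genes rose and fell in SKO spermatocytes: every called constitutive core subunit was higher, and most called subunits of the regulatory cap were lower. Of the 48, 45 passed the filter on low counts and were tested; 11 rose in SKO spermatocytes, 13 fell and 21 did not pass. That is 53.3% of those tested, with 24.4% higher and 28.9% lower, where 28.5% of all tested genes were called, 14.1% higher and 14.4% lower. Among the 14 constitutive core subunits (Psma1 to Psma7 and Psmb1 to Psmb7) 7 rose and 0 fell in edgeR's test. Among the 17 subunits of the regulatory particle with Psmc or Psmd symbols, 2 rose and 9 fell. Adrm1 and Sem1, cap subunits under other names, are not counted in the 17 and are given with the related genes below. No constitutive core subunit was lower at an unadjusted p under 0.05 either (0 of 14), nor by DESeq2 (0) or limma-voom (0). With library totals 3 of the 14 were lower, and with offsets for GC content and transcript length 1 was, both given below. Psma8, which fell, is not among the 14. The median log2 fold change was 0.30 over the core and −0.35 over the regulatory particle, beside −0.15 over all 45 and −0.03 over all tested genes. In CPM, the SKO and WT libraries did not overlap for 34 of the 45, with SKO above WT for 18 and below for 16; the share over all tested genes was 43.8%, with 21.6% above and 22.2% below.

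**Figure D1:**
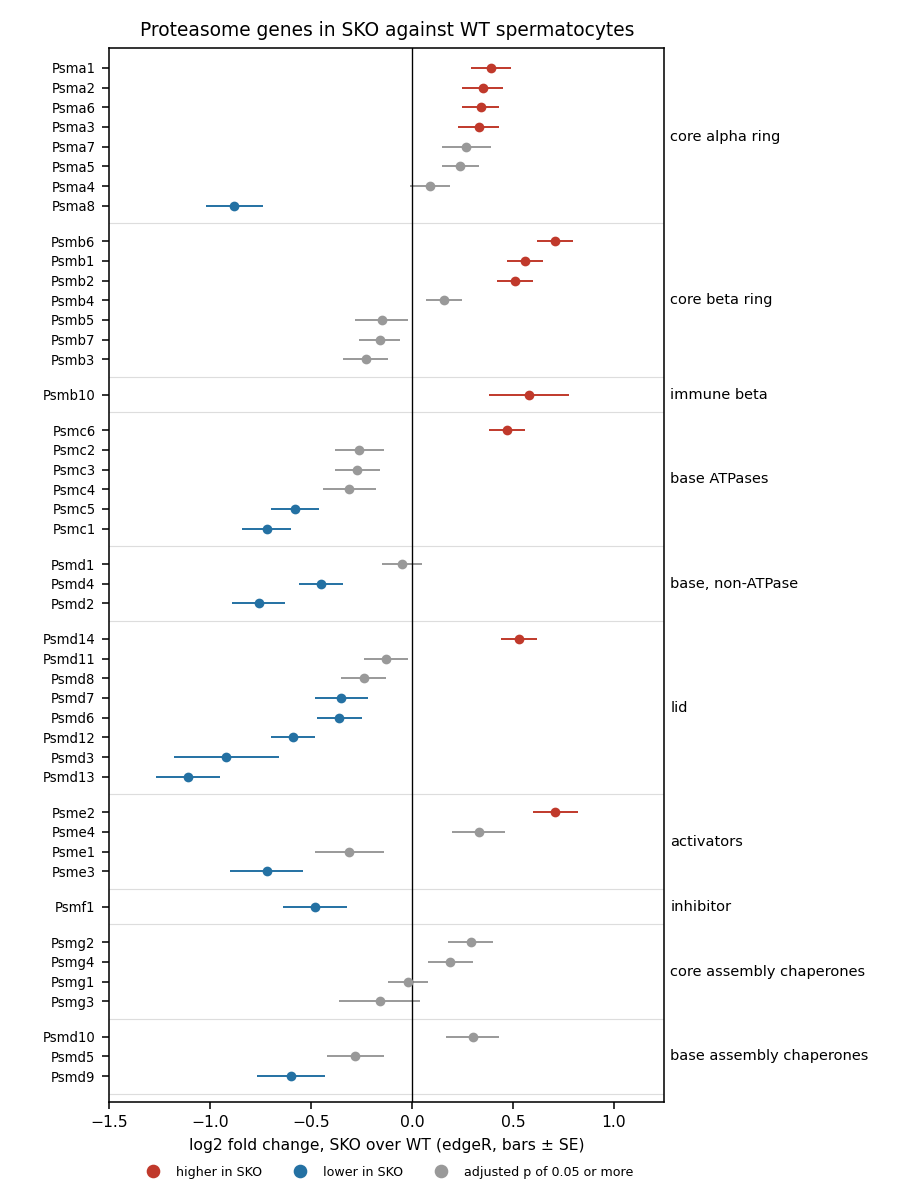
Log2 fold change (SKO over WT, x axis) of each of the 45 tested proteasome genes, grouped by place in the complex; points are edgeR estimates and bars ± 1 SE, red for higher and blue for lower in SKO at an adjusted p under 0.05 and grey for the rest. Psmb6 and Psme2 lie farthest to the right at 0.71 and Psmd13 farthest to the left at −1.11.

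These counts moved with single libraries and with the scaling. The 11 higher calls became 6 without SKO replicate 2 and 7 without WT replicate 1 or WT replicate 2, and the 13 lower calls became 8 without SKO replicate 3. Calls over all tested genes dropped too. Those higher went from 14.1% to 9.37% without SKO replicate 2, 11.3% without WT replicate 1 and 10.9% without WT replicate 2. Those lower went from 14.4% to 9.99% without SKO replicate 3. Core subunits called higher, 7 with all libraries, numbered 3 without SKO replicate 2 and 4 without WT replicate 1 or WT replicate 2. Scaling by library totals instead of TMM shifted the median over all tested genes to −0.29 on the log2 scale and gave 5 higher and 25 lower calls among the proteasome genes, 16.7% of calls higher against 45.8% with TMM; over all genes that share was 24.2% against 49.5%. With totals the core had 3 subunits higher and 3 lower (Psmb3, Psmb5 and Psmb7), and the regulatory particle 1 higher and 15 lower. Relative to the median of all genes, the core median lay at 0.33 and the regulatory median at −0.32 under both scalings. A change of scaling moves all genes by about the same amount, so this equality was fixed in advance. With the offsets for GC content and transcript length described below, the values were 0.18 and −0.07.

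In the alpha ring of the core, 4 subunits rose modestly and the germ cell member fell. Psma1, Psma2, Psma3 and Psma6 rose, Psma8 fell, and Psma4, Psma5 and Psma7 did not pass. Psma1 to Psma7 form the outer ring whose tails close the gate to the chamber. Psma1 had 692, 787 and 798 CPM in SKO, against 568, 542 and 624 CPM in WT (log2 fold change 0.39, SE 0.10; adjusted p = 0.00818). Psma2 had 620.3, 660.2 and 679.6 CPM in SKO, against 494, 484 and 557 CPM in WT (0.35, SE 0.10; adjusted p = 0.0135). Psma3 had 928, 1019 and 1046 CPM in SKO, against 745, 759.5 and 868 CPM in WT (0.33, SE 0.10; adjusted p = 0.0179). For all 3 of these genes the lowest SKO library lay above the highest WT library, with WT replicate 3 the highest of its group. Psma6 had 965, 971 and 907 CPM in SKO, against 720.3, 715 and 807 CPM in WT (0.34, SE 0.09; adjusted p = 0.0117), again without overlap. The alpha subunits that did not pass ran from 0.09 (Psma4, adjusted p = 0.524) over 0.24 (Psma5, 0.0685) to 0.27 (Psma7, 0.12) in log2 fold change.

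The alpha ring calls were sensitive to single libraries. Without SKO replicate 2, the adjusted p in edgeR's test was 0.0514 for Psma1, 0.0632 for Psma2, 0.0822 for Psma3 and 0.0642 for Psma6. Without WT replicate 1 it was 0.0556, 0.0788 and 0.0514 for Psma2, Psma3 and Psma6, and without WT replicate 2 it was 0.0625, 0.0719 and 0.0534 in the same order; Psma3 also missed without SKO replicate 3 (0.0639). The estimates moved little, from 0.29 to 0.36 over those fits. Scaled by library totals, the 4 subunits kept a positive log2 fold change of 0.07 to 0.13 and none of the 4 was called.

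In the beta ring 3 of 7 constitutive subunits rose. Psmb6, Psmb1 and Psmb2 rose, and they kept that call in every one of the 14 alternatives and left-out libraries. Psmb6, the catalytic subunit with caspase-like activity, had 1199.6, 1144 and 1243 CPM in SKO, against 759, 702 and 734 CPM in WT (log2 fold change 0.71, SE 0.09; adjusted p = 5.19e-05). Psmb1, a structural subunit, had 1401, 1369 and 1498 CPM in SKO, against 954, 939.7 and 994 CPM in WT (0.56, SE 0.09; adjusted p = 0.000257). Psmb2, another structural subunit, had 1536, 1581 and 1699 CPM in SKO, against 1191, 1036 and 1161 CPM in WT (0.51, SE 0.09; adjusted p = 0.000889). The lowest SKO library lay above the highest WT library for all 3 genes. Psmb6 (ENSMUSG00000018286) lies at chr11:70525367-70527858 on the plus strand of GRCm38. The other catalytic subunits did not pass. Psmb5, with chymotrypsin-like activity, had 156, 136 and 118 CPM in SKO, against 139.7, 174 and 143 CPM in WT (−0.15, SE 0.13; adjusted p = 0.432). Psmb7, with trypsin-like activity, had 193, 184 and 191 CPM in SKO, against 203, 205 and 229 CPM in WT (−0.16, SE 0.10; adjusted p = 0.272). The structural subunits Psmb3 and Psmb4 lay at −0.23 (adjusted p = 0.141) and 0.16 (0.232). Pseudogenes of Psmb5 and Psmb6 in the table had no count, and that of Psmb7 had 1 count in SKO replicate 1 and 1 in WT replicate 3.

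The level per transcript length, in CPM per kilobase (kb) of 1 chosen transcript a gene, spanned a wide range within each ring. In the constitutive beta ring the highest level was that of Psmb2, 1869 ± 97.7 CPM per kb in SKO and 1315 ± 95.9 CPM per kb in WT (SD, n = 3 each). The lowest was that of Psmb5, 152 ± 21.1 CPM per kb in SKO and 169 ± 21.0 CPM per kb in WT. Highest over lowest came to 12.3-fold in SKO and 7.77-fold in WT. In the alpha ring Psma6 was highest, at 909.5 ± 34.0 CPM per kb in SKO and 717 ± 49.4 CPM per kb in WT, and Psma8 lowest in both groups. Each constitutive subunit occurs once per ring, with Psma8 in the place of Psma7 where it is used, while the transcript levels differed. The levels also depend on the transcript chosen for the length.

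**Figure D2:**
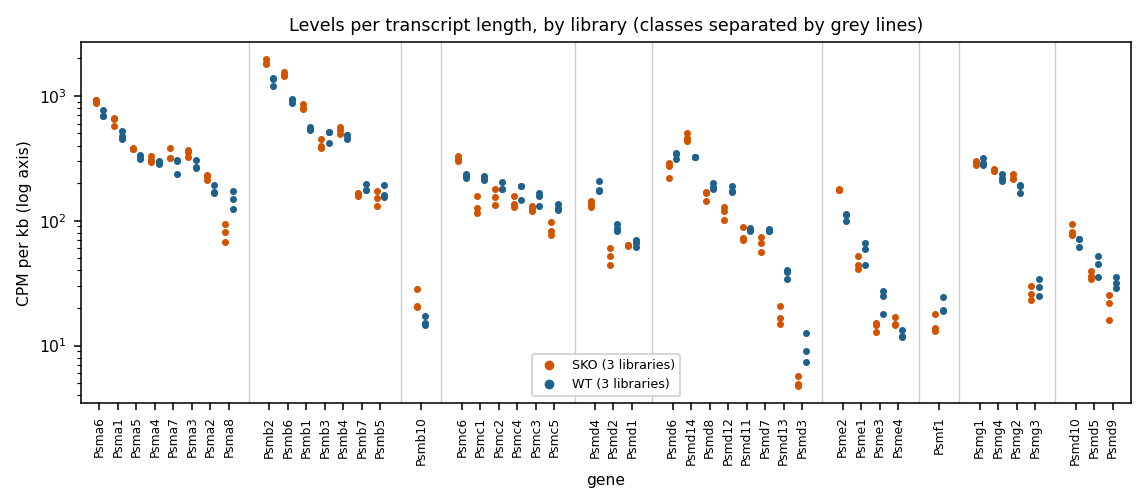
Level of each of the 45 tested proteasome genes in CPM per kb of transcript (y axis, log scale), 1 point a library, SKO left of WT within each gene; grey lines separate the classes, from the alpha ring at the left to the chaperones of the base at the right. Constitutive core subunits lie between 152 (Psmb5) and 1869 (Psmb2) CPM per kb in SKO means, Psma8 is at 80.5 and Psmb10 at 23.3, and Psmd3 is the lowest of all at 5.12 in SKO and 9.69 in WT.

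Psma8, the alpha subunit of germ cells that takes the place of Psma7 in spermatocytes, fell while Psma7 did not pass. Psma8 had 114, 136 and 158 CPM in SKO, against 290.0, 212 and 252 CPM in WT (log2 fold change −0.88, SE 0.14; adjusted p = 0.000389 in edgeR). Every SKO library lay below every WT library, and the call held in all 14 alternatives, at −1.15 to −0.77. Psma7 had 350.0, 291 and 289.6 CPM in SKO, against 273, 282 and 216 CPM in WT. Psma8 made up 15.0%, 20.2% and 22.8% of the summed Psma7 and Psma8 level per length in SKO, against 36.5%, 28.8% and 38.6% in WT (19.3 ± 3.97% and 34.6 ± 5.16%, SD, n = 3 each), a share that library scaling does not touch. Markers of pachytene, the stage at which Psma8 protein is best known, were also called in both directions. Of 12 such markers 8 were tested, 4 were lower (Ldhc, Clgn, Piwil1 and Tbpl1) and 1 higher (Mybl1). Ldhc, a sperm-type lactate dehydrogenase, had 9.46, 14.3 and 14.4 CPM in SKO, against 54.3, 47.8 and 65.1 CPM in WT. The 12 markers summed to 590.05 to 691 CPM in SKO and 688 to 819.9 CPM in WT, which overlap. Most of that sum came from Tbpl1 (log2 fold change −0.28), Hspa2 (0.08, not passed) and Mybl1 (0.47). Ldhc (−2.13), Clgn (−1.68) and Piwil1 made up a small part of it, so the sum hardly reflects their fall. In bulk libraries fewer cells of a stage and less RNA per cell cannot be told apart, and the part of stage in the Psma8 result was not tested.

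The catalytic subunits of the immunoproteasome, which replace their constitutive relatives in immune cells or under interferon, were near or below detection except Psmb10. Psmb10, the counterpart of Psmb7, had 37.5, 27.3 and 26.8 CPM in SKO, against 19.1, 19.8 and 22.6 CPM in WT (log2 fold change 0.58, SE 0.20; adjusted p = 0.0486 in edgeR). The groups did not overlap, but SKO replicate 1 stood above the rest. The call was lost whichever library was left out, with adjusted p of 0.0513 (WT replicate 3), 0.0622 (SKO replicate 3), 0.0789 (SKO replicate 2), 0.118 (WT replicate 2), 0.126 (WT replicate 1) and 0.231 (SKO replicate 1, log2 fold change 0.40). Psmb10 made up 14.7%, 11.6% and 11.0% of the summed Psmb7 and Psmb10 level per length in SKO, against 7.72%, 7.88% and 8.02% in WT. Psmb8, Psmb9 and the thymic Psmb11 failed the filter on low counts. Psmb8 had 0, 0 and 6 counts in SKO and 0 in each WT library; Psmb9 had 4, 24 and 8 counts in SKO, against 8, 0 and 0 in WT; Psmb11 had 4, 0 and 0 counts in SKO and 0 in each WT library. The 8 macrophage and leukocyte markers summed to 3.13, 2.70 and 65.4 CPM in SKO, against 3.35, 3.30 and 2.16 CPM in WT, so that SKO replicate 3 stood apart. All 6 counts of Psmb8 fell in that library, while Psmb10 was lowest there among the SKO libraries and Psmb9 was highest in SKO replicate 2; the part of such cells in Psmb8 was not tested.

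Among the ATPases of the base, which form the ring that unfolds and threads substrates, Psmc1 and Psmc5 fell and Psmc6 rose. Psmc1 had 249, 203 and 183 CPM in SKO, against 361, 348 and 338 CPM in WT (log2 fold change −0.72, SE 0.12; adjusted p = 0.000432). Psmc5 had 129, 100.2 and 108 CPM in SKO, against 165, 179 and 161 CPM in WT (−0.58, SE 0.12; adjusted p = 0.00273). Psmc6 had 676, 702 and 741 CPM in SKO, against 506, 492 and 530.3 CPM in WT (0.47, SE 0.09; adjusted p = 0.00151). None of these 3 genes overlapped between the groups in TMM-scaled CPM, and the ring, which takes 1 copy of each ATPase, had transcripts moving in opposite directions. Psmc2, Psmc3 and Psmc4 lay between −0.31 and −0.26 and did not pass. Psmc2 passed without SKO replicate 1 (−0.37, adjusted p = 0.0332), Psmc3 without WT replicate 3 (−0.36, 0.0276), and Psmc4 without SKO replicate 1 (−0.41, 0.0416) or WT replicate 3 (−0.42, 0.0189). With offsets for GC content and transcript length fitted in each library, Psmc6 was at −0.02 (adjusted p = 0.909) and Psmc3 at 0.31 (0.0275), so neither had a direction that held across the fits. With library totals Psmc6 was at 0.21 (0.0554).

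The other subunits of the base bind ubiquitin and shuttle proteins. Psmd2, a large scaffold that receives those proteins, had 179.6, 154 and 130.1 CPM in SKO, against 281, 259.9 and 243 CPM in WT (−0.76, SE 0.13; adjusted p = 0.000488). Psmd4, a ubiquitin receptor, had 192, 180.5 and 169.9 CPM in SKO, against 231, 276 and 233 CPM in WT (−0.45, SE 0.11; adjusted p = 0.00785). Both fell without overlap of the groups. Psmd1, the other large scaffold, had 198, 199 and 196 CPM in SKO, against 218, 206 and 191 CPM in WT (−0.05, SE 0.10; adjusted p = 0.759), which overlap.

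Of the 8 lid subunits with Psmd symbols, 5 fell and 1 rose. Psmd13, Psmd3, Psmd12, Psmd6 and Psmd7 fell, Psmd14 rose, and Psmd8 and Psmd11 did not pass. Psmd13, a scaffold subunit, had 41.1, 32.8 and 29.4 CPM in SKO, against 79.7, 67.5 and 76.8 CPM in WT (−1.11, SE 0.16; adjusted p = 0.000184). Psmd12, another scaffold subunit, had 228, 247 and 194 CPM in SKO, against 329, 358 and 322 CPM in WT (−0.59, SE 0.11; adjusted p = 0.00123). Psmd14, the metalloprotease that cuts ubiquitin from substrates, had 676, 706 and 779.7 CPM in SKO, against 496, 496 and 501 CPM in WT (0.53, SE 0.09; adjusted p = 0.000709). Psmd13 (ENSMUSG00000025487) lies at chr7:140881968-140898643 and Psmd14 (ENSMUSG00000026914) at chr2:61711694-61800376, both on the plus strand of GRCm38. These 3 genes kept their calls in all 14 alternatives, and Psmd14 moved against its partner in the same dimer, Psmd7. Psmd7, which lacks the protease activity, had 117, 89.4 and 104 CPM in SKO, against 135, 131 and 130.0 CPM in WT (−0.35, SE 0.13; adjusted p = 0.0495). Psmd6 had 399, 382 and 307 CPM in SKO, against 486, 474 and 433 CPM in WT (−0.36, SE 0.11; adjusted p = 0.0292). Psmd3 had 10.6, 12.3 and 10.1 CPM in SKO, against 19.5, 27.0 and 16.0 CPM in WT (−0.92, SE 0.26; adjusted p = 0.0152). The groups did not overlap for any of these 3 scaffold and partner subunits, yet their calls were not stable. Psmd7 missed without SKO replicate 2 (adjusted p = 0.226), SKO replicate 3 (0.111), WT replicate 1 (0.119), WT replicate 2 (0.104) or WT replicate 3 (0.0755). Psmd6 missed without SKO replicate 2 (0.0647), SKO replicate 3 (0.128), WT replicate 1 (0.102) or WT replicate 2 (0.0852), and Psmd3 without SKO replicate 3 (0.058) or WT replicate 2 (0.0928). Psmd13 shares 10.1% of its exon length with Sirt3 on the other strand, and reads of such a pair cannot be told apart where strand is not recorded.

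Read by library, the pattern of core and cap was present in every SKO library. The mean level of a core subunit was 610.5, 605 and 622 CPM per kb in SKO, against 479.9, 456 and 485 CPM per kb in WT. The mean level of a regulatory subunit was 147, 138 and 135 CPM per kb in SKO, against 159, 161 and 150.4 CPM per kb in WT. Both sets of values separate the groups under TMM scaling. Their ratio, which does not depend on how libraries are scaled, was 4.16, 4.39 and 4.59 in SKO, against 3.01, 2.83 and 3.22 in WT (4.38 ± 0.214 and 3.02 ± 0.196, SD, n = 3 each). It was not corrected for trends with GC content or transcript length. With offsets for those, the median log2 fold change was 0.17 over the core and −0.09 over the regulatory particle, against 0.30 and −0.35 without. Without any length the ratio of summed CPM was 2.40 ± 0.127 in SKO and 1.67 ± 0.109 in WT, and the ratio of geometric means, in which each gene weighs the same, was 3.25 ± 0.197 in SKO and 2.13 ± 0.138 in WT. These ratios leave out the cap subunits Sem1, at 813 CPM per kb in SKO and 638 in WT, and Adrm1, at 29.2 and 96.5. Ratios with them were not computed. All proteasome genes together took 1.52%, 1.41% and 1.39% of counts in SKO, against 1.55%, 1.55% and 1.51% in WT. In TMM-scaled CPM the same sum was 15884, 15645 and 15818 in SKO, against 14249, 13814 and 14105 in WT, so the direction of the total depends on the scaling.

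**Figure D3:**
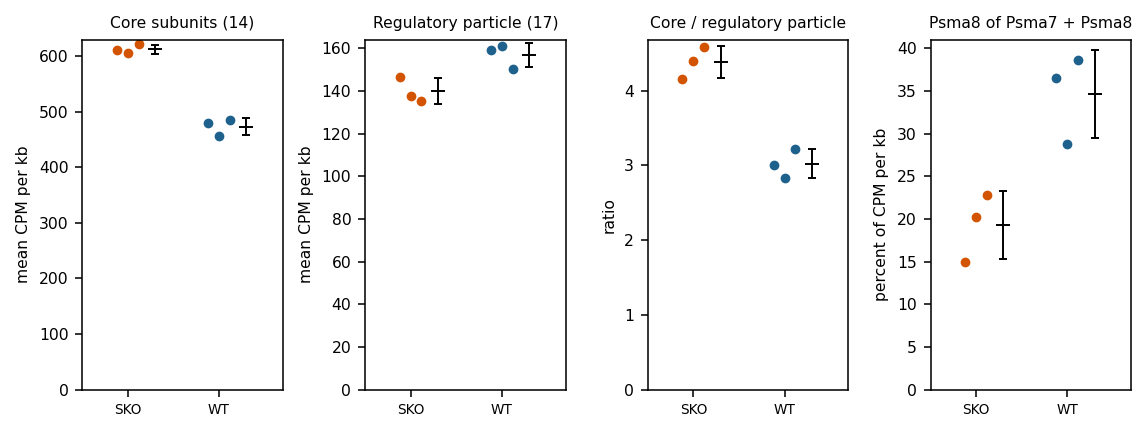
Mean level of the 14 constitutive core subunits and of the 17 regulatory subunits in CPM per kb, their ratio, and the percentage of Psma8 in the summed level of Psma7 and Psma8, with 1 point a library, SKO left of WT, and bars for mean ± SD (n = 3). The ratio is 4.38 in SKO and 3.02 in WT on average, with every SKO library above every WT library. Adrm1 and Sem1 are not among the 17, and no offsets for GC content or length were used.

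**Figure D4:**
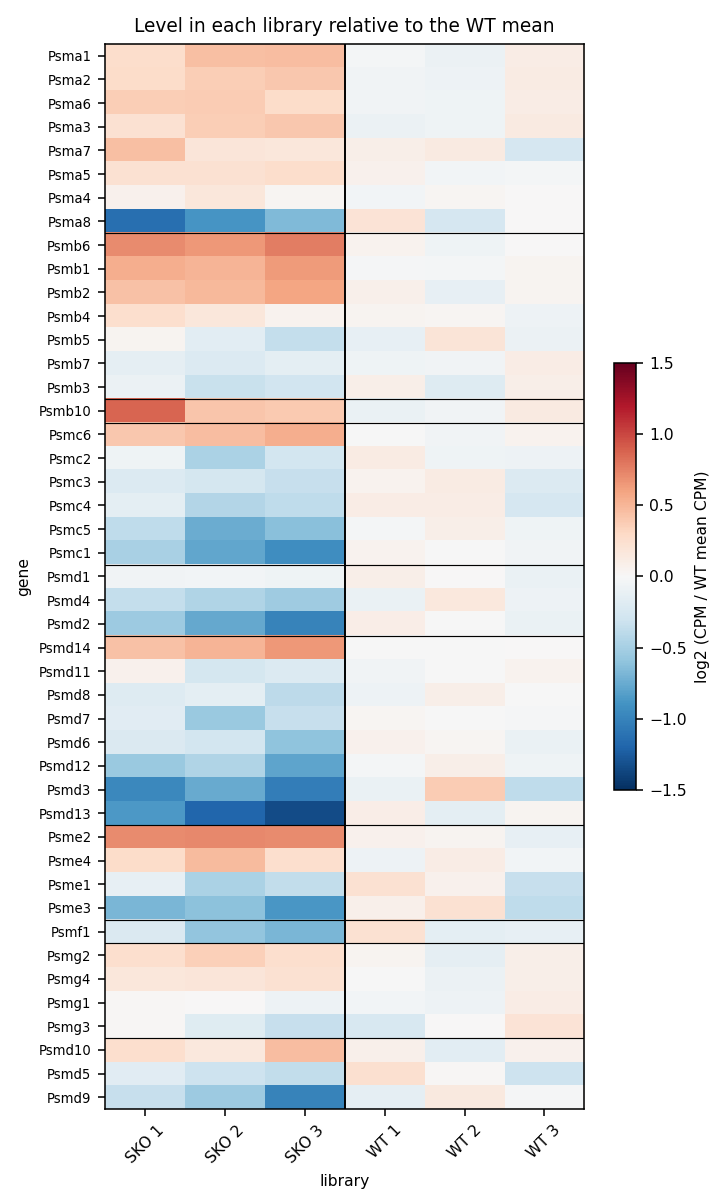
Log2 of the CPM of each tested proteasome gene over its WT mean, in the 3 SKO libraries (left) and the 3 WT libraries (right), with lines between the classes; red is above and blue below the WT mean. The 3 SKO columns are red for most alpha subunits and for Psmb6, Psmb1 and Psmb2, and blue for most of the base and lid, with Psmc6 and Psmd14 as the exceptions there.

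The activators that can cap the core in place of the regulatory particle went separate ways. Psme2, which with Psme1 forms the activator induced by interferon, had 170.1, 171 and 169.8 CPM in SKO, against 109, 107 and 95.7 CPM in WT (log2 fold change 0.71, SE 0.11; adjusted p = 0.000291 in edgeR). Psme1 had 57.8, 45.3 and 48.8 CPM in SKO, against 73.5, 65.6 and 49.4 CPM in WT (−0.31, SE 0.17; adjusted p = 0.201). Psme2 was nearly equal in the 3 SKO libraries and its call held in all 14 alternatives, whereas its partner in the ring did not pass. Psme2 (ENSMUSG00000079197) lies at chr14:55587441-55591113, on the minus strand. A near copy, Psme2b, had 41, 50 and 51 counts in SKO and 55, 41 and 30 in WT; how reads that match both copies were assigned is not known here. Psme3, which forms the activator of the nucleus, had 38.7, 40.7 and 34.0 CPM in SKO, against 65.9, 72.9 and 47.9 CPM in WT (−0.72, SE 0.18; adjusted p = 0.00713), without overlap and in all 14 alternatives. Psme4, the activator linked to the removal of acetylated histones in male germ cells, had 96.1, 111 and 94.5 CPM in SKO, against 75.7, 86.0 and 77.2 CPM in WT; at 0.33 (SE 0.13; adjusted p = 0.0633) it did not pass in edgeR and passed in DESeq2 (adjusted p = 0.0344). Psmf1, an inhibitor of the core in the test tube, had 68.6, 53.1 and 49.7 CPM in SKO, against 93.7, 72.1 and 73.3 CPM in WT (−0.48, SE 0.16; adjusted p = 0.0397). It fell with all libraries and missed without SKO replicate 2 (0.146), SKO replicate 3 (0.153) or WT replicate 1 (0.176).

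The chaperones that build the core, Psmg1 to Psmg4, had none called in edgeR's test, with 1 at an unadjusted p under 0.05, and 1 called by DESeq2 and 1 by limma-voom, in each case Psmg2. Psmg2, at 230.4, 248 and 231 CPM in SKO and 199, 175 and 206 CPM in WT, had a log2 fold change of 0.29 (adjusted p = 0.0548) and passed without WT replicate 3 (0.34, adjusted p = 0.0468). The other 3 ran from −0.16 (Psmg3) to 0.19 (Psmg4). Of the chaperones of the base, Psmd9 fell, with 65.8, 57.1 and 41.8 CPM in SKO, against 75.7, 92.3 and 82.1 CPM in WT (−0.60, SE 0.17; adjusted p = 0.0152). It missed without SKO replicate 3 (0.0715) or WT replicate 2 (0.0686), and 25.5% of its exon length overlaps Gm26745 on the other strand. Psmd5 was at −0.28 (adjusted p = 0.149; −0.41 and 0.0255 without WT replicate 3), and Psmd10 at 0.30 (0.0975).

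Genes that work with the proteasome but carry other names also moved both ways. Of 30 such genes, all tested, 7 rose, 7 fell and 16 did not pass, which is 46.7% called where 28.5% of all tested genes were, with a median log2 fold change of −0.10. With library totals 1 was higher and 11 lower, and with the GC and length offsets 2 were higher and 4 lower. Adrm1, a ubiquitin receptor of the base, had 53.3, 41.6 and 39.6 CPM in SKO, against 169, 169 and 107 CPM in WT (−1.72, SE 0.18, edgeR adjusted p = 1.66e-05). It fell in all 14 alternatives, with every SKO library below every WT library. Akirin2, needed for import of proteasomes into the nucleus, had 49.4, 39.0 and 44.8 CPM in SKO, against 67.7, 69.6 and 64.0 CPM in WT (−0.59, adjusted p = 0.00754; 0.0514 without SKO replicate 2). It too fell with no overlap between the groups. Among those that rose, Rps27a, which codes for ubiquitin fused to a ribosomal protein, had 1197, 1384 and 1338 CPM in SKO, against 596, 631 and 770.0 CPM in WT (0.97, adjusted p = 2.54e-05). Pomp, the factor that matures the core's beta rings, had 439.7, 427 and 468 CPM in SKO, against 336, 349 and 365 CPM in WT (0.35, adjusted p = 0.014; 0.0581 without SKO replicate 3 and 0.0565 without WT replicate 1). Both kept SKO above WT in every library. Txnl1, a thioredoxin bound to the cap, had 306, 298 and 311 CPM in SKO, against 194, 250.1 and 204 CPM in WT (0.50, adjusted p = 0.00453; 0.12 and 0.551 with the offsets). Zfand5, a stimulator of proteasome activity, had 167, 190.4 and 183 CPM in SKO, against 124, 140.4 and 138 CPM in WT (0.42, adjusted p = 0.0105; 0.0743 without SKO replicate 2). With library totals Pomp (0.51), Txnl1 (0.152) and Zfand5 (0.293) had an adjusted p above the threshold. Sem1, a small lid subunit that carries another name and was singled out after its values were seen, had 1059, 1241 and 1288 CPM in SKO, against 846, 855 and 1116 CPM in WT (0.35, adjusted p = 0.0405). Its groups overlap, and it missed without SKO replicate 2 (0.143), SKO replicate 3 (0.142), WT replicate 1 (0.166) or WT replicate 2 (0.154). The transcription factors Nfe2l1 and Nfe2l2, known in mammals to raise proteasome genes under stress, did not pass, at −0.29 (adjusted p = 0.386) and −0.20 (0.582). Without SKO replicate 2 or WT replicate 1 the higher calls among the 30 numbered 3, where 9.37% and 11.3% of all tested genes were higher. Without SKO replicate 3 they numbered 4, where 9.77% of all tested genes were higher.

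The promoters of called subunits are shown because core and cap moved apart and their upstream sequences can be set side by side. The 250 bases before the RefSeq start (GRCm38.p6) were found for 40 of the 48 genes. Those without an entry were Psma8, Psmb1, Psmb2, Psmb7, Psmc3, Psmd3, Psmd7 and Psmg2. The windows printed belong to the called core and regulatory subunits whose window holds no exon of the gene in GENCODE vM21. Capitals mark an antioxidant response element (TGACNNNGC), a CCAAT box or an ETS site (CCGGAAG), each searched on both strands; the start lies just after the last base, and no printed motifs overlap. Psmb6 and Psmd14 rose and Psmd2 and Psmd4 fell. The windows are chr11:70525107-70525356 (plus strand) for Psmb6, chr2:61711444-61711693 (plus) for Psmd14, chr16:20651402-20651651 (plus) for Psmd2 and chr3:95042615-95042864 (minus) for Psmd4.
Psmb6: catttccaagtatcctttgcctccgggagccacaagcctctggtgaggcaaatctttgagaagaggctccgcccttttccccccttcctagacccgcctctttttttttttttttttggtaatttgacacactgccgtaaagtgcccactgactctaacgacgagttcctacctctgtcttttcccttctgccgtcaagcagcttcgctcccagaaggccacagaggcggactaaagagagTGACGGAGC
Psmd14: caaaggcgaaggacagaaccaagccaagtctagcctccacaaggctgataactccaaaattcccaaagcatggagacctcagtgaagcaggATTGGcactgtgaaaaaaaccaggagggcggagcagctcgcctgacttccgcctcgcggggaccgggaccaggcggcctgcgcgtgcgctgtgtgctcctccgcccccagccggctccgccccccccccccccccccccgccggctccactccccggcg
Psmd2: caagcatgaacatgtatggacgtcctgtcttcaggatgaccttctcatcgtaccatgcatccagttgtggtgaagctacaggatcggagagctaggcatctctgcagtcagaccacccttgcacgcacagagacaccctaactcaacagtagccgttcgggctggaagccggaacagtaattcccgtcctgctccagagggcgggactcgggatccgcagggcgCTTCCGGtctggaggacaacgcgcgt
Psmd4: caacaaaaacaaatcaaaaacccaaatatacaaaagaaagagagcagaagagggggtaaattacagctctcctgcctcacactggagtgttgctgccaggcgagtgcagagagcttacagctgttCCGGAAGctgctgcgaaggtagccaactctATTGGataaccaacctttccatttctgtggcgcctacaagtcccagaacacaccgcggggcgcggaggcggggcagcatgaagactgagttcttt
Psmb6 has an antioxidant response element, TGACGGAGC, that begins 9 bases before the start, Psmd2 an ETS site 26 bases before it, Psmd4 an ETS site at 125 and a CCAAT box at 95 bases, and Psmd14 a CCAAT box at 159 bases.

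Of the 4 motifs searched, the ETS site differed most in share between cap and core. It was present before 8 of 14 regulatory subunits (57.1%) and 1 of 11 core subunits (9.09%, Psma6), and before 6.91% of the 32851 mouse promoters in the table. It was found before 6 of 10 genes that fell (60.0%), 2 of 9 that rose (22.2%, Psmc6 and Psma6) and 4 of 18 that did not pass (22.2%); these shares were not tested against each other. CCAAT was present before 5 of 11 core subunits (45.5%), 4 of 14 regulatory subunits (28.6%) and 33.8% of all promoters. The antioxidant response element, the type of site bound by the Nfe2l factors, was present before 2 of 11 core subunits, 2 of 14 regulatory subunits and 10.2% of all promoters. The cAMP response element TGACGTCA was found before 0 of the 40, and before 1.55% of all promoters. These are matches of letters in a window, with no measure of binding. Each proteasome gene was counted by 1 promoter. The share over all promoters counted every listed promoter, more than 1 for some genes, whether or not the gene was expressed here. Shares over expressed genes alone were not computed. Unlike the printed windows, those counted here could hold exon of the gene, all 250 bases for Psmd13, Psmb8, Psmb9 and Psmb11 and 232 for Psmd1.

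Fold changes in these libraries also followed the base composition of the transcripts. From the lowest to the highest quartile of GC content, tested genes had median log2 fold changes of 0.29, 0.07, −0.16 and −0.48. Core subunits had medians of 0.35, 0.24, 0.22 and 0.28 in those quartiles (3, 5, 4 and 2 genes), and regulatory subunits 0.47, −0.20, −0.58 and −0.45 (3, 4, 7 and 3 genes). In each quartile but the lowest the regulatory median lay below the core median, and the core medians lay between 0.22 and 0.35. The parts also differed in transcript length. In the shortest quartile, with 11 core and 4 regulatory genes, the medians were 0.24 over the core, −0.40 over the regulatory particle and 0.18 over all tested genes. In the next, with 1 core gene (0.56) and 10 regulatory genes, the regulatory median was −0.31, as over all tested genes (−0.31). In the one after that the 2 core genes had a median of 0.34 and the 3 regulatory genes −0.13, beside −0.10 over all tested genes, and the longest quartile held neither. With offsets that remove each library's trend on GC content and transcript length, the core had 5 subunits higher and 1 lower (Psmb3), with a median of 0.17, and the regulatory particle 2 higher (Psmd14 and Psmc3) and 6 lower, with a median of −0.09. All proteasome genes then counted 9 higher and 10 lower, of which 6 and 8 were also called without offsets, and their median was −0.02 beside −0.01 over all genes.

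**Figure D5:**
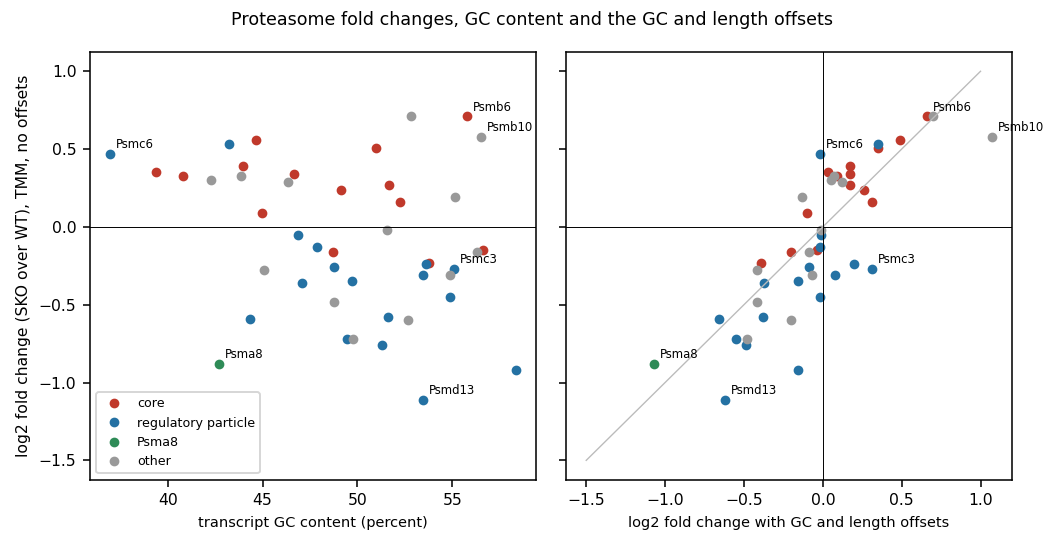
Log2 fold change of the tested proteasome genes (SKO over WT, y axis) against transcript GC content in percent (left) and against the log2 fold change with offsets for GC content and length (right, grey line for equal values); red core, blue regulatory particle, green Psma8, grey others. Psmb6 keeps 0.66 and Psma8 −1.07 with the offsets, while Psmc6 is at −0.02 and Psmc3 at 0.31.

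The offsets split the called genes. Lost were Psma1, Psma2, Psma3, Psma6, Psmc6, Psmd3, Psmd4, Psmd7, Psmd9 and Psmf1, and gained were Psma5, Psmb3, Psmb4, Psmc3 and Psmd5. Psma2 was then at 0.03 (edgeR adjusted p = 0.847), Psmd4 at −0.02 (0.928) and Psmd3 at −0.16 (0.688). By contrast Psmb6 stayed at 0.66 (4.59e-05), Psme2 at 0.70 (0.000218), Psmb1 at 0.49 (0.000314), Psmd12 at −0.66 (0.000947), Psmd13 at −0.62 (0.00856) and Psma8 at −1.07 (1.38e-05), while Psmb10 reached 1.07 (0.000964). Of the 24 called genes, 12 kept their call in all 14 alternatives, left-out libraries included. These were Psmb1, Psmb2, Psmb6, Psmd14 and Psme2 among those that rose, and Psma8, Psmc1, Psmc5, Psmd2, Psmd12, Psmd13 and Psme3 among those that fell. With each library left out in turn and nothing else changed, 14 of the 24 kept their call, with Psmc6 and Psmd4 added.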

How the data were processed

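The 6 libraries (3 SKO, 3 WT) came in 1 table of raw counts of reads per gene, whole numbers that the authors deposited without normalization. The submitters' processing notes name FastQC, Trim Galore 0.6.4, HISAT2 2.0.5, GRCm38 and mm10. Not given in the sources used here is how reads were counted, or whether by strand. The table's knockout columns say CKO where the labels say SKO, and they were assigned by genotype and replicate number.

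Tests used edgeR 4.0.16 (R 4.3.3): filterByExpr, TMM scaling, glmQLFit and glmQLFTest with genotype as the only term (two-sided), and Benjamini-Hochberg adjustment over 13474 genes, threshold 0.05. Fold changes are SKO over WT; standard errors come from the same fit. Alternatives were DESeq2 size factors, library totals, no low-count filter, DESeq2 1.42.0, limma-voom (limma 3.58.1), a replicate block, offsets for GC content and length (loess, span 0.3), both together, and each library left out. Symbols, lengths and GC content came from GENCODE vM21, with 1 principal transcript a gene; promoters came from RefSeq.

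All called proteasome genes and Psma8 and the immune subunits were given library by library, and up to 4 related genes in each direction by smallest p. Some of the related genes that this rule names are not reported here. The members, lists and tests were chosen with earlier results of these data known. Exact permutation of 3 against 3 libraries reaches a p of 0.1 at the lowest, so none was used. Without molecular identifiers, count limits cover counting error only. Chi-square over degrees of freedom between replicates of a group, 12.0 to 22.2, exceeded sampling noise, so no library was taken for a copy.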

Additional observations from a re-analysis of the deposited data

How the results depend on the processing

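DESeq2 size factors, DESeq2 and limma-voom left the proteasome counts within 12 to 14 higher and 12 to 13 lower calls, beside 11 and 13. Without a low-count filter the counts were 10 and 14 and the median of the proteasome genes −0.10. Library totals gave 5 higher and 25 lower calls and a median of −0.41, with 1 higher and 11 lower among the related genes and 1010 higher and 3168 lower over all tested genes. GC content and length offsets gave a median of −0.02, with 2 higher and 4 lower related genes and 1459 higher and 1590 lower over all genes. The offsets turned the direction of Psmc6 (−0.02), Psmc3 (0.31), Zfand5 (−0.06) and Sem1 (−0.21, against 0.35 without them). Among genes called in neither fit they also changed the sign of Psmd8 (0.20, against −0.24), Psmc4 (0.08, against −0.31), Psmg4 (−0.13, against 0.19) and Psma4 (−0.10, against 0.09); the cause was not tested.

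With each library left out in turn, proteasome genes called higher ranged from 6 to 11 and called lower from 8 to 15, with a median log2 fold change of −0.24 to −0.08. Related genes ranged from 3 to 7 higher and 5 to 9 lower, and all tested genes from 1361 to 1916 higher and 1373 to 1851 lower. Over the 14 alternatives, 533 of 630 fold changes of proteasome genes kept their call and direction.

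Same-numbered libraries were not paired by the data (correlations of their deviations 0.0214, −0.0505 and 0.0391), and the labels tie no number to an animal or day. The replicate block gave 10 higher and 14 lower calls, losing Psmb10 (adjusted p = 0.061) and gaining Psmc4 (0.0452). With the block and the offsets together the proteasome median was −0.02, related calls were 3 higher and 4 lower, and Psmc6, Psmc3, Zfand5 and Sem1 were at −0.02, 0.31, −0.06 and −0.20. Psmb8, Psmb9 and Psmb11 had too few counts to pass the filter and were not tested.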
